A study of Homo sapiens with 12 samples.

Results

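The aminoacyl-tRNA synthetase genes were taken from the deposited table by symbol: names of the form XARS with or without a final 1, 2 or 3, EPRS1, FARSA and FARSB. This gave 38 of the 60623 genes listed. Of these, 21 encode cytosolic enzymes and 17 encode mitochondrial ones, whose symbols end in 2. TARS3, formerly TARSL2, was counted as cytosolic. All were measured in the human line HMEC-1, made by immortalising microvascular endothelial cells of the skin, by messenger RNA sequencing in 4 groups of 3 libraries. Control cells (CT) had a change of medium, and cells of the other 3 groups had oncostatin M (a member of the interleukin-6 cytokines) for 48 h. The cytokine was given alone (OSM), with 30 µg/mL PF9363, named in the labels as a KAT6A/B inhibitor (PF9363 group), or with 10 µg/mL CBP300, named as an EP300 inhibitor (CBP300 group). The treatment protocol gives the cytokine as 10 ng/mL, whereas the sample labels give 10 µg/mL. Neither inhibitor was given without the cytokine, no vehicle is named, and all libraries come from 1 cell line. The labels do not say that replicates were separate cultures, so p-values measure the spread between these libraries, which may be technical.

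Each synthetase joins an amino acid to the tRNAs that carry its codons' anticodons, the step that sets the genetic code. The cytosolic enzymes serve the main ribosomes, and a largely separate set of nuclear genes serves the ribosomes of mitochondria. GARS1 and KARS1 encode enzymes for both compartments, EPRS1 joins glutamyl- and prolyl-tRNA synthetase in 1 chain, and FARSA and FARSB are the subunits of the cytosolic phenylalanyl enzyme. Several cytosolic enzymes are held together with scaffold proteins in the multisynthetase complex. When uncharged tRNA accumulates, the kinase GCN2 raises translation of the transcription factor ATF4, which binds C/EBP-ATF response elements in many amino acid genes, cytosolic synthetase genes among them. WARS1 is also a known interferon-gamma target, and released forms of WARS1 and YARS1 are known to act on endothelial cells.

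RefSeq promoter windows (GRCh38.p14, 250 bases before to 50 after the start) were at hand for 30 of the 38 genes. The core letters of the C/EBP-ATF response element, TGATGNAA on either strand, were found in 7 of 16 cytosolic promoters (43.8%) and in 1 of 14 mitochondrial promoters (7.14%, YARS2). Of all 27305 genes with a window, 4.46% held them. The stretches around the 7 cytosolic matches are shown because they set these promoters apart in sequence, with the match in capitals. In order, they lie at chr16:70289656-70289723 (minus strand), chr11:3057388-3057455 (minus), chr7:30594815-30594882 (plus), chr9:92293673-92293740 (minus), chr12:57488034-57488101 (plus), chr18:57621787-57621852 (minus) and chr5:33440937-33441004 (plus).
AARS1: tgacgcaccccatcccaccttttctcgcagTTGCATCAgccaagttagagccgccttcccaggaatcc
CARS1: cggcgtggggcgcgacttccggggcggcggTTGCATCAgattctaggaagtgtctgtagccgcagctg
GARS1: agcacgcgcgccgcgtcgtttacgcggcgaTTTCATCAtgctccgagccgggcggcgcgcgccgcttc
IARS1: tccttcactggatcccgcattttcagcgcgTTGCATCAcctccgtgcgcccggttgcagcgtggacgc
MARS1: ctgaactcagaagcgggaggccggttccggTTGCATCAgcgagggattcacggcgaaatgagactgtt
NARS1: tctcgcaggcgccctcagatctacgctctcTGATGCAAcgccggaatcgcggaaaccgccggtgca
TARS1: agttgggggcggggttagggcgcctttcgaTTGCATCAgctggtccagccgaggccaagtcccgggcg

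In 6 of these 7 the match reads TTGCATCA or its complement TGATGCAA, and GARS1 has TTTCATCA. The first matched base lay between position -33 and 15 from the start in 6 of them and at -187 in AARS1. The letters of a gamma-activated site, TTCNNNGAA, the same on both strands, were in 3 of 16 cytosolic promoters (18.8%) against 9.38% of all genes. The match of WARS1 began at -142, within chr14:100375451-100375519 (minus strand), and is shown because WARS1 differed most between the inhibitors among the genes that were higher with PF9363.
WARS1: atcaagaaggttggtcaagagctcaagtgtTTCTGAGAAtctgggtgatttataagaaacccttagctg

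The E-box letters CACGTG were in 1 of 16 cytosolic promoters and in 3 of 14 mitochondrial ones (CARS2, EARS2 and MARS2, 21.4%), against 8.77% of all genes. A match is a description of the letters, not a site, and binding was not measured.

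In units of 1e6, the reads recovered per library ran from 13.4 to 73.3. All 10 endothelial markers, PECAM1, CDH5 and VWF among them, passed the filter on low values, but their summed level was 1293.5 to 1411.1 TPM in CT libraries, 1186.4 to 1233.2 in OSM libraries, 1049.5 to 1126.3 with PF9363 and 663 to 707 with CBP300. The sums do not give the direction of single markers. In OSM against CT 5 of the 10 were called higher and 3 lower (limma, adjusted p under 0.05), beside 42.1% and 15.2% of all tested genes. Against OSM, 1 was higher and 1 lower with PF9363 (11.3% and 35.6% of all), and 0 and 7 with CBP300 (13.8% and 13.3%). Of 5 leukocyte markers 1 passed, CD14, and the list summed to 4.48 to 6.69 TPM in CT libraries, 13.7 to 17.5 in OSM libraries, 44.9 to 60.2 with PF9363 and 15.9 to 17.8 with CBP300, with CD3E at 0 in all groups but PF9363. Epithelial and fibroblast or mural lists each had 2 of 5 markers past the filter, summing to 0.673 to 7.09 and 3.09 to 9.84 TPM over the groups, with CDH1 at 0 in CT, OSM and CBP300, DCN at 0 in the same groups and LUM at 0 in CT, PF9363 and CBP300. The part of these markers in the synthetase differences was not tested. CT replicate 1 stood apart from its group (mean absolute log2 difference of 0.58 and 0.48 to the other CT libraries, which differed by 0.22), and so did PF9363 replicate 3 (0.46 and 0.39, against 0.25). The libraries also differed in how levels moved with GC content. Slopes were fitted on each gene's deviation from its mean over the 12 libraries, with transcript length in the fit, so they are relative. They ran from 0.22 to 0.60 log2 units per 10 percentage points in CT libraries and from -0.11 to 0.01 in OSM libraries. With PF9363 they were -0.15 to 0.11 and with CBP300 -0.35 to -0.29.

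Cytosolic synthetase transcripts were the more abundant set. TPM is already per length, so levels can be set side by side between genes, though the gene lengths used are not given. The trend with GC content was not removed from these levels. Over the 12 libraries the mean level ran from 12.2 TPM (TARS3) to 189 TPM (AARS1) among cytosolic genes, with a median of 77.5 TPM. After AARS1, the alanyl enzyme, came QARS1 at 165 TPM, SARS1 at 153 TPM, and KARS1 and NARS1 at 133 TPM each, and the last pair did not differ beyond the range over libraries. The lowest cytosolic levels after TARS3 were those of CARS1 (19.6 TPM) and FARSB (22.6 TPM). FARSA, the partner of FARSB in 1 enzyme, stood at 124 TPM. Mitochondrial genes ran from 0.343 TPM (VARS2) to 66.2 TPM (IARS2), with a median of 16.2 TPM, and HARS2 (44.6 TPM), YARS2 (34.1 TPM) and RARS2 (32.6 TPM) followed IARS2.

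VARS2, the mitochondrial valyl enzyme, was the only gene that did not reach 1 TPM in 3 libraries and so was not tested. It was at 0.123, 0.166 and 0.165 TPM in CT libraries, 0.393, 0.347 and 0.401 in OSM libraries, 0.254, 0.284 and 0.0881 with PF9363 and 0.520, 0.519 and 0.851 with CBP300. The remaining 37 genes passed, 36 of them with at least 1 TPM in every library and MARS2 in 11 of 12.

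The summed cytosolic level was 1555 TPM ± 131 (SD, n = 3) in CT libraries, 1882 ± 23.3 in OSM libraries, 1701 ± 106 with PF9363 and 1992 ± 23.5 with CBP300. The summed mitochondrial level was 297 TPM ± 51.2 in CT libraries, 407 ± 8.27 in OSM libraries, 267 ± 24.7 with PF9363 and 445 ± 4.65 with CBP300. The ratio of the sums was 5.29 ± 0.517, 4.62 ± 0.111, 6.39 ± 0.288 and 4.47 ± 0.0471 in that order. PF9363 libraries thus had the highest ratio, 6.16 to 6.71, above the 4.55 to 4.75 of OSM and the 4.42 to 4.51 of CBP300, with no overlap. In bulk samples, fewer cells of a kind and less RNA per cell cannot be told apart.

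**Figure D1:**
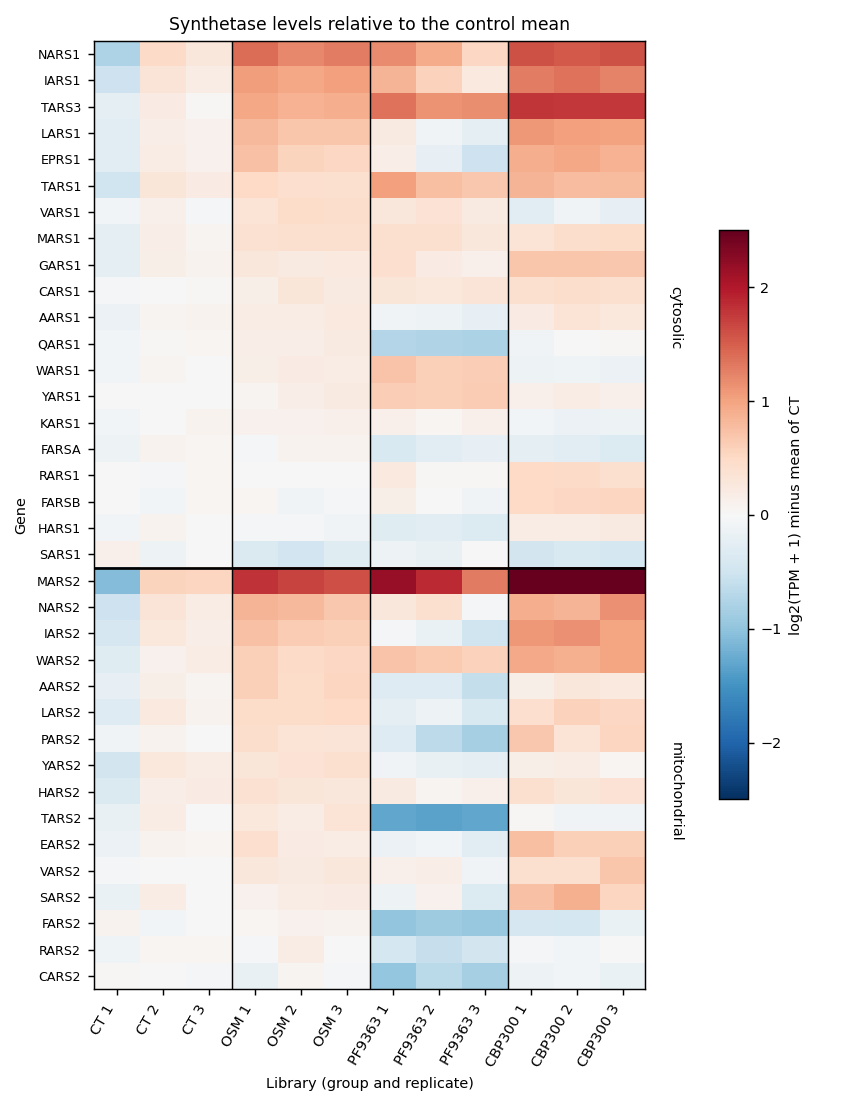
Level of 36 of the 38 synthetase genes listed, the untested VARS2 among them (rows, cytosolic above the black line and mitochondrial below) in each of the 12 libraries (columns), as log2(TPM + 1) minus the CT mean, where values past the ends of the colour scale take its end colours. NARS1, IARS1, TARS3 and MARS2 were above the CT mean in all OSM and CBP300 libraries, and TARS2, FARS2, CARS2 and QARS1 were below it in the 3 PF9363 libraries.

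The first question was which synthetase transcripts changed with oncostatin M. With OSM set against CT, a subset of synthetase genes rose well beyond the spread between libraries, among them MARS2 (mitochondrial methionyl enzyme), NARS1 (asparaginyl), IARS1 (isoleucyl) and TARS3 (a second cytosolic threonyl enzyme), while SARS1 (seryl) fell. MARS2 lies at chr2:197705369-197708387 (GRCh38, plus strand) and TARS3 at chr15:101653598-101724604 (minus).

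MARS2 was at 0.525, 3.77 and 3.72 TPM in CT libraries, 10.3, 9.49 and 8.93 in OSM libraries, 13.8, 10.8 and 7.03 with PF9363 and 19.4, 20.4 and 20.5 with CBP300. Every OSM library was above every CT library, the CBP300 libraries were above all others, and the lowest, CT replicate 1, rests on 10 reads. MARS2 rose in OSM by 1.70 on the log2(TPM + 1) scale (SE 0.38, limma, Benjamini-Hochberg adjusted p = 0.00480), and by 1.16 without CT replicate 1. NARS1 was at 36.6, 88.4 and 77.5 TPM in CT libraries, 168, 146 and 154 in OSM libraries, 145, 121 and 90.2 with PF9363 and 191, 185 and 192 with CBP300. The OSM and CT libraries did not overlap, and the rise was 1.29 (SE 0.28, limma adjusted p = 0.00404).

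IARS1 was at 30.5, 54.8 and 50.03 TPM in CT and 91.2, 86.9 and 90.2 in OSM, and TARS3 at 4.14, 6.05 and 5.23 TPM in CT and 10.9, 10.1 and 10.4 in OSM. Neither gene overlapped between the groups. The rises were 1.02 for IARS1 (limma adjusted p = 0.00319) and 0.91 for TARS3 (limma adjusted p = 0.000574). After removal of the trend that levels followed with GC content and transcript length in each library, MARS2 (1.37), NARS1 (0.73), IARS1 (0.18) and TARS3 (0.32) were still called higher, at smaller values. SARS1 went the other way, at 195, 162 and 178 TPM in CT and 137, 128 and 144 in OSM. All OSM libraries were below all CT libraries, and the fall was -0.38 (SE 0.09, limma adjusted p = 0.00558).

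Of the 37 tested synthetase genes, 21 were called higher in OSM and 1 lower, against 42.1% of all 16848 tested genes higher and 15.2% lower (limma, adjusted p under 0.05). Cytosolic genes gave 12 of 21 higher and mitochondrial genes 9 of 16. The median change of the 37 genes was 0.32, next to 0.31 over all tested genes. With median-of-ratios scaling, which brings the median of all genes to near 0, 9 were called higher and 7 lower, against 29.9% and 27.9% of all tested genes. With the GC and length trend removed, 14 were called higher and 7 lower, against 23.6% and 27.3%, and 11 of the 21 were still called higher. EPRS1, at 47.2, 66.2 and 62.3 TPM in CT and 97.1, 85.8 and 83.6 in OSM, was higher by 0.60 as deposited and lower by 0.29 with the trend removed, and both were called. WARS1 was 75.8, 83.9 and 79.6 TPM in CT and 88.5, 91.9 and 91.0 in OSM, a rise of 0.18 (limma adjusted p = 0.0431) that became -0.21 under median-of-ratios scaling.

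Within the multisynthetase complex, 6 of 8 synthetases rose and 0 fell, against 42.1% and 15.2% of all tested genes. The median was 0.50, and KARS1 and RARS1 were not called. With the trend removed the complex had 3 higher and 2 lower, with a median of -0.03. The dual-compartment genes GARS1 (0.25, limma adjusted p = 0.0736) and KARS1 (0.12, limma adjusted p = 0.162) were not called, although their OSM libraries all lay above the CT libraries. That order was seen for 27 of the 37 genes and for 48.6% of all tested genes. Of 13 cytosolic genes described elsewhere as ATF4 targets, 9 rose and 1, SARS1, fell, against 4 higher and 3 lower with the trend removed and 3 higher and 1 lower with median-of-ratios scaling. The 7 genes with TGATGNAA had a median of 0.39 with 5 called higher, and the 9 other cytosolic genes with a window a median of 0.04 with 3 higher and 1 lower. These medians with the trend removed were 0.01 and -0.29.

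The same table held the wider pathway. Of 20 genes of uncharged tRNA sensing and the ATF4 response, 11 rose and 3 fell in OSM (42.1% and 15.2% of all tested genes), with a median of 0.33 beside 0.31 for all genes, and 7 and 3 were called with the trend removed. EIF2AK3, an eIF2 kinase, rose by 1.45 (0.67 with the trend removed) and PSAT1, of serine synthesis, by 1.29 (0.82). SLC7A11, the cystine transporter, rose by 1.29 as deposited, but was at -0.15 and not called with the trend removed (limma adjusted p = 0.327). ATF4 itself, named after its values were seen, was at 624 TPM ± 5.83 (SD, n = 3) in OSM and 719 ± 24.4 in CT, a fall of -0.20 (limma adjusted p = 0.0414) that was not called with the trend removed (-0.06). Of 19 tested genes of tRNA charging and delivery 7 rose and 4 fell, and with the trend removed 2 were called higher and 9 lower. The balance of all tested genes turned as well, from 42.1% higher and 15.2% lower to 23.6% and 27.3%. XPOT, the tRNA export receptor, rose by 1.26 (0.15 with the trend removed), and SEPSECS, of selenocysteine synthesis, by 1.24, a call that was lost with the trend removed (0.03, limma adjusted p = 0.824).

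**Figure D2:**
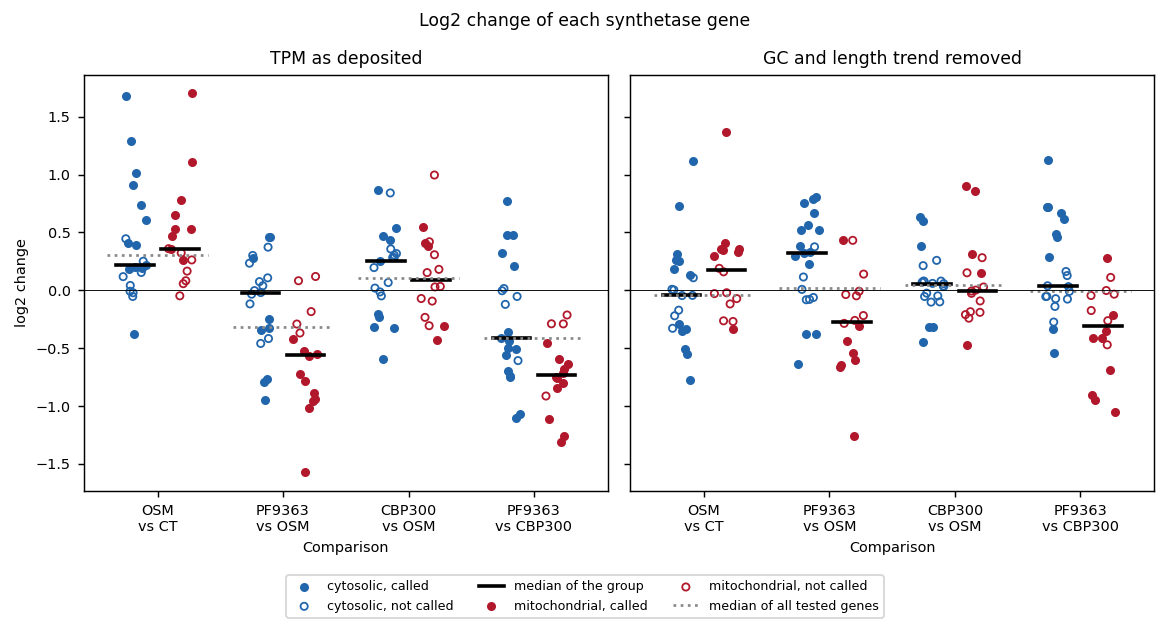
Log2 change of each tested synthetase gene (points) in the 4 comparisons (horizontal axis), for TPM as deposited (left) and with the GC and length trend removed (right), with filled points called at an adjusted p under 0.05, black bars at the median of each set and dotted lines at the median of all tested genes. In PF9363 against OSM the mitochondrial median (-0.56) lay below the cytosolic one (-0.02) and below that of all genes (-0.31), and with the trend removed the medians were -0.27, 0.32 and 0.02.

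The next question was how these transcripts differed when PF9363 was added to oncostatin M. Against OSM, PF9363 libraries had less RNA of most mitochondrial synthetases, most of all TARS2 (threonyl), FARS2 (phenylalanyl) and PARS2 (prolyl), and less of the cytosolic QARS1 (glutaminyl), EPRS1 and LARS1 (leucyl). WARS1 (tryptophanyl), YARS1 (tyrosyl) and SARS1 were higher.

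TARS2 (chr1:150487364-150507609, plus strand) was at 22.1, 28.8 and 25.0 TPM in CT libraries, 30.4, 28.6 and 32.2 in OSM libraries, 9.62, 9.36 and 9.69 with PF9363 and 25.6, 23.8 and 23.5 with CBP300. The PF9363 libraries were below all 9 others, and their mean was 31.4% of the OSM mean. TARS2 fell by 1.57 on the log2 scale (SE 0.10, limma adjusted p = 1.06e-06), and the value was -1.26 with the GC and length trend removed. FARS2 was at 8.54, 8.94 and 8.85 TPM in OSM and 3.65, 4.01 and 3.81 in PF9363, a change of -1.02 (limma adjusted p = 2.14e-05). PARS2 was at 10.99, 10.2 and 10.1 TPM in OSM and 6.10, 4.68 and 4.03 in PF9363, a change of -0.96 (limma adjusted p = 0.000241). Neither gene overlapped between these groups.

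QARS1 (chr3:49095932-49105135, minus strand), which has no mitochondrial counterpart, was at 168, 180.0 and 183 TPM in CT libraries, 199.6, 199 and 208 in OSM libraries, 106, 104 and 101 with PF9363 and 166, 179 and 180.4 with CBP300. The PF9363 libraries were again below all others, at 51.5% of the OSM mean. QARS1 fell by 0.95 on the log2 scale (SE 0.07, limma adjusted p = 1.91e-06). EPRS1 was at 65.2, 50.1 and 40.3 TPM in PF9363, below the OSM libraries, with a change of -0.79 (limma adjusted p = 0.00313) that was -0.62 without PF9363 replicate 3. With the trend removed, TARS2, FARS2, PARS2, QARS1, AARS2, IARS2, EPRS1, CARS2, LARS1 and LARS2 were still called lower.

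WARS1 (chr14:100333788-100376805, minus strand) was at 88.5, 91.9 and 91.0 TPM in OSM, 131, 122 and 122.8 with PF9363 and 72.9, 73.5 and 71.5 with CBP300. YARS1 (chr1:32775237-32818153, minus strand) was at 53.7, 57.5 and 59.4 TPM in OSM, 78.9, 77.4 and 80.0 with PF9363 and 55.7, 57.7 and 55.4 with CBP300. For both genes the PF9363 libraries were the highest of the 12. Each rose by 0.46 against OSM (limma adjusted p = 0.000291 for WARS1 and 0.000269 for YARS1), and by 0.64 and 0.62 against CT. SARS1, at 163, 156 and 179.6 TPM in PF9363, rose by 0.28 (limma adjusted p = 0.0249), but was not called without PF9363 replicate 3 (0.22), without OSM replicate 1 or without OSM replicate 2.

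**Figure D3:**
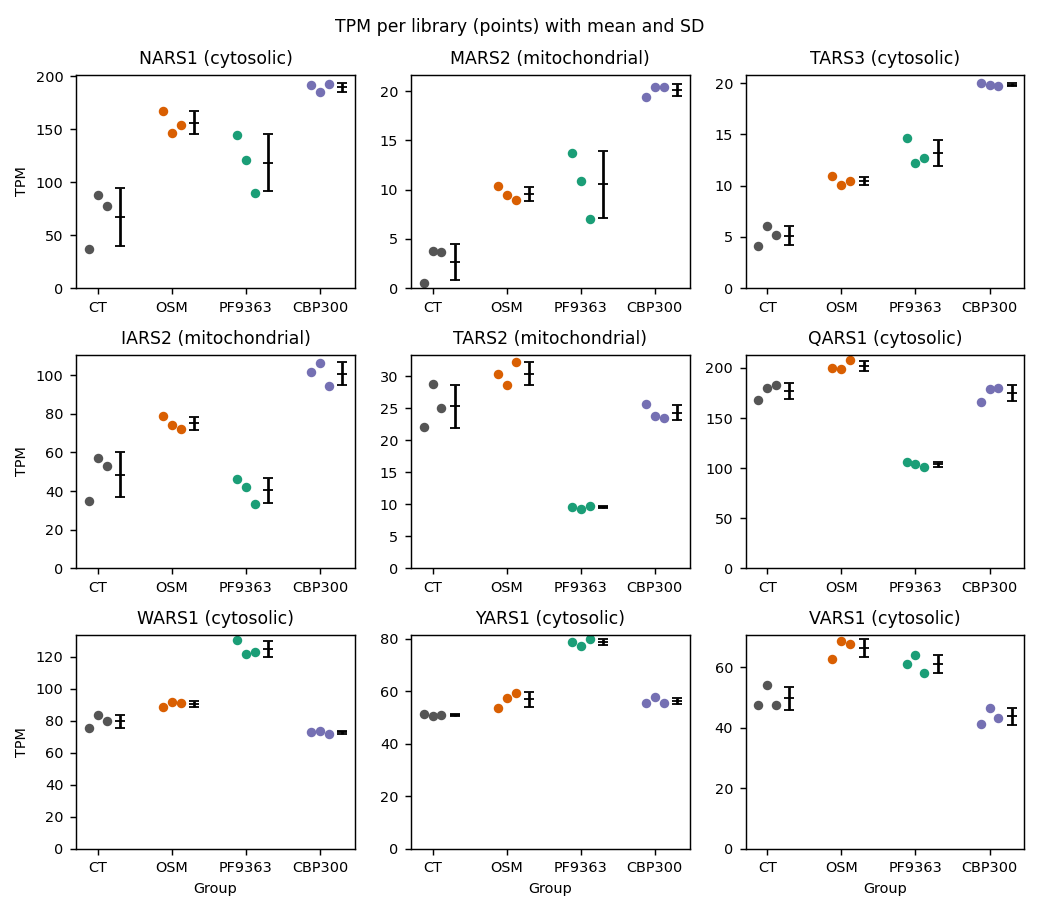
TPM of 9 synthetase genes in each library (points, 3 per group), with the group mean and SD beside them and each vertical axis starting at 0. TARS2 and QARS1 were lowest in PF9363, WARS1 and YARS1 highest in PF9363, and NARS1, MARS2, TARS3 and IARS2 highest in CBP300.

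In all, 3 of 37 synthetase genes were called higher and 17 lower, against 11.3% of all tested genes higher and 35.6% lower. The compartments differed in these counts, with 3 higher and 6 lower among 21 cytosolic genes and 0 higher and 11 lower among 16 mitochondrial ones. The median change was -0.02 for cytosolic and -0.56 for mitochondrial genes, beside -0.31 for all tested genes, a difference between the sets of 0.54. That difference lay between 0.46 and 0.59 in the 23 other settings tried, while the counts moved with scaling. With median-of-ratios scaling 12 genes were called higher and 10 lower, against 22% and 22.4% of all tested genes. With the GC and length trend removed 13 were higher and 10 lower, against 27.7% and 24.6%, and of these 12 cytosolic genes were higher and 7 mitochondrial ones lower. In all 3 PF9363 libraries the median level of the cytosolic genes exceeded that of the mitochondrial ones by more (2.43 to 2.79 on the log2 scale) than in any OSM library (2.15 to 2.21).

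For enzymes of the same amino acid, the cytosolic change was above the mitochondrial one in 12 of 16 pairs, and in 12 of 16 with the trend removed. Threonine gave the widest gap. The ratio of TARS1 to TARS2 was 1.96, 2.63 and 2.83 in CT libraries, 2.88, 2.90 and 2.54 in OSM libraries, 13.1, 11.2 and 10.2 with PF9363 and 4.36, 4.45 and 4.54 with CBP300, highest in PF9363 with no overlap. TARS1 itself was 87.4, 83.0 and 82.0 TPM in OSM and 126, 105 and 98.8 in PF9363, a difference of 0.37 that was not called (limma adjusted p = 0.113), but was called higher with the trend removed (0.76), with median-of-ratios scaling (0.74) and with voom on recovered reads (0.48). The ratio of YARS1 to YARS2 was 1.36, 1.40 and 1.41 in OSM and 2.66, 2.78 and 2.95 in PF9363, and tyrosine was the pair in which the cytosolic gene rose and the mitochondrial gene fell. Histidine did not show such a gap: HARS1 changed by -0.25 and HARS2, whose start lies within HARS1 on the other strand, by -0.18, which was not called.

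Among the 8 synthetases of the multisynthetase complex, LARS1, EPRS1 and QARS1 fell (37.5%) and none rose. This was near the share of all tested genes called lower, 35.6%, with 11.3% called higher. Among the 13 cytosolic genes outside the complex, 3 rose and 3 fell (AARS1, FARSA and HARS1). With the trend removed, the complex had 4 higher and 3 lower, and those outside it 8 higher and 0 lower. Of all tested genes 27.7% were then higher and 24.6% lower. The dual-compartment genes GARS1 and KARS1 stayed near OSM, with log2 changes of -0.0025 and -0.02 that were not called, and each became positive and called once the trend was removed (0.33 and 0.30). LARS2, the mitochondrial leucyl enzyme, was at 10.3, 10.2 and 10.6 TPM in OSM and 5.89, 6.51 and 5.31 in PF9363, without overlap, and fell by 0.73 on the log2 scale (limma adjusted p = 0.00173).

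Of the 13 cytosolic synthetase genes described as ATF4 targets, 3 rose and 3 fell with PF9363, or 8 and 2 with the trend removed. Of the 7 with TGATGNAA, 0 rose and 1 fell, or 4 and 0 with the trend removed. Of the 20 genes of uncharged tRNA sensing and the ATF4 response, 11 rose and 2 fell with PF9363, and 13 and 0 were called with the trend removed. Among all tested genes 11.3% rose and 35.6% fell, or 27.7% and 24.6% with the trend removed. SLC3A2, a subunit of amino acid transporters, went from 99.6 TPM ± 3.04 to 294 ± 12.2 (SD, n = 3), a change of 1.55. ATF3, a stress-induced transcription factor, rose by 1.49, and SLC7A5, the partner of SLC3A2 in leucine import, by 1.43. Of 10 tested interferon-gamma response genes 7 rose and 1 fell, MX1 by 2.88 and IRF7 by 2.07, both of which are better known as targets of type I interferon. In tRNA charging and delivery 3 of 19 tested genes rose and 6 fell, against 6 higher and 5 lower with the trend removed. Both counts were near the shares of all tested genes. GATB, a subunit of the amidotransferase that makes mitochondrial glutaminyl-tRNA, was at 6.31 TPM ± 0.432 in OSM and 2.41 ± 0.0575 in PF9363, a change of -1.10, while DTD1, a deacylase of mischarged tRNA, changed by -1.21.

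The same question was asked of CBP300. Against OSM, CBP300 libraries had more TARS3, SARS2 (mitochondrial seryl), FARSB, RARS1 (arginyl) and GARS1, and less VARS1 (valyl), FARS2, FARSA and WARS1. These values share the OSM libraries with those of PF9363.

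TARS3 was at 20.0, 19.8 and 19.7 TPM in CBP300, above the 12.2 to 14.6 TPM of PF9363, the OSM libraries and the CT libraries. It rose by 0.86 against OSM (SE 0.12, limma adjusted p = 0.000675), and was 386% of the CT mean. FARSB was at 20.9, 19.1 and 19.9 TPM in OSM and 28.98, 29.6 and 29.8 in CBP300, a rise of 0.54 (limma adjusted p = 0.00139). FARSA, the other subunit, went from 130, 144 and 144 TPM in OSM to 114, 113 and 106 in CBP300, a fall of -0.32 (limma adjusted p = 0.0196). The subunits of 1 enzyme thus differed in direction, without overlap between groups for either, but with the GC and length trend removed neither was called (0.21 and -0.02).

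VARS1 (chr6:31777518-31795953, minus strand) was at 47.4, 54.0 and 47.5 TPM in CT libraries, 62.8, 68.4 and 67.5 in OSM libraries, 60.9, 63.9 and 58.1 with PF9363 and 41.3, 46.6 and 43.1 with CBP300. The CBP300 libraries were the lowest of the 12, but against CT the gene was not called (-0.18, limma adjusted p = 0.0803). VARS1 fell by 0.59 on the log2 scale against OSM (SE 0.09, limma adjusted p = 0.000786) after the rise of 0.41 in OSM against CT. WARS1 fell by 0.31 (limma adjusted p = 0.00815), to libraries below all CT libraries, but was not called against CT (-0.13, limma adjusted p = 0.107). RARS1, at 52.6, 52.6 and 53.8 TPM in OSM and 75.5, 74.9 and 70.8 in CBP300, rose by 0.47 (limma adjusted p = 0.00208), and GARS1, at 89.3, 86.1 and 87.3 TPM in OSM and 119.7, 119 and 117 in CBP300, by 0.43 (limma adjusted p = 0.0167). SARS2 was at 3.98, 4.29 and 4.35 TPM in OSM and 6.69, 7.56 and 5.71 in CBP300, a rise of 0.55 (limma adjusted p = 0.0205). For each of these 3 genes the CBP300 libraries were above the OSM libraries.

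Altogether 8 of 37 synthetase genes were called higher and 7 lower, against 13.8% and 13.3% of all tested genes. The cytosolic genes gave 5 higher and 5 lower and the mitochondrial ones 3 higher and 2 lower, with medians of 0.25 and 0.09 beside 0.11 for all genes. With the trend removed 7 were higher and 4 lower (17.4% and 14.4% of all genes), TARS3, SARS2, EARS2 and GARS1 remaining higher and VARS1, FARS2, WARS1 and KARS1 lower. These counts rest on few libraries: they ranged from 3 to 14 higher and from 2 to 9 lower when single libraries were left out, with the 14 and the 9 reached without CT replicate 1. Over all 16848 tested genes, that omission gave 4692 higher and 3031 lower, against 2327 and 2238 with every library kept. In a fit of the OSM and CBP300 libraries alone, 18 were called higher, beside 6300 of all tested genes. MARS2 had the widest difference that was not called, 1.00 (limma adjusted p = 0.0757), and was called higher with the trend removed (0.90, limma adjusted p = 0.0324). Its CBP300 libraries were all above its OSM libraries, an order seen for 19 of the 37 genes and 41% of all tested genes. EPRS1 (0.32) and LARS2 (0.03) were not called, and KARS1, at 140.4, 141 and 143 TPM in OSM and 125, 117 and 119 in CBP300, fell by 0.23 on the log2 scale (limma adjusted p = 0.0307). The call of KARS1 was lost without any 1 of the 6 OSM and CBP300 libraries, those of FARSA and SARS2 without 5 of them and those of GARS1 and FARS2 without 4, each left out singly.

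The change of a synthetase gene with CBP300 ran against its GC content. Over the 37 genes Spearman's rho between the GC content of the longest transcript and the log2 change was -0.60 for CBP300 against OSM, -0.34 for OSM against CT and -0.20 for PF9363 against OSM. The values with the trend removed were -0.20, 0.27 and -0.22. Genes are not independent and share the same libraries, so this is a description. The relation was not particular to synthetases. Over the better expressed tested genes the slopes per 10 percentage points of GC were -0.35 to -0.29 with CBP300 and -0.11 to 0.01 in OSM. FARSB (41.6% GC) stood near the low end and VARS1 (62.6%) at the high end.

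**Figure D4:**
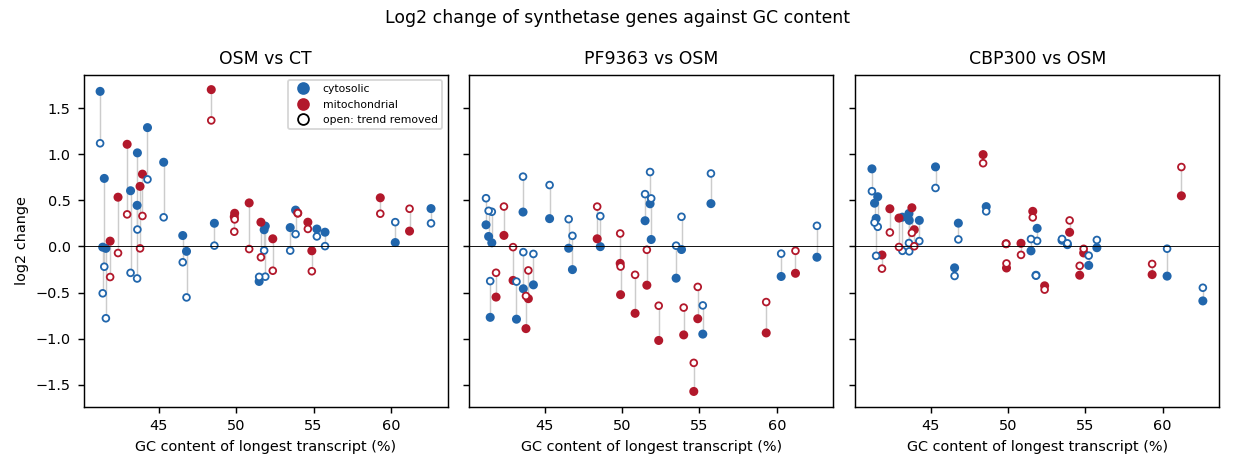
Log2 change of each of the 37 synthetase genes against the GC content of its longest transcript in percent, in 3 comparisons, with filled points as deposited, open points with the GC and length trend removed and a line joining both values of a gene. The slope in CBP300 against OSM (rho -0.60) was weaker with the trend removed (rho -0.20). In PF9363 against OSM the values of most mitochondrial genes were negative, with WARS2 (0.12) and MARS2 (0.08) above 0.

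Of the 13 cytosolic synthetase genes described as ATF4 targets, 1 rose and 2 fell with CBP300, the same counts as with the trend removed. In the pathway lists, 6 of 20 genes of uncharged tRNA sensing and the ATF4 response rose with CBP300 and 0 fell (13.8% and 13.3% of all tested genes), and with the trend removed 10 were called higher and 0 lower. PPP1R15A, a regulator of eIF2 dephosphorylation, rose by 0.93. SLC7A11 rose by 0.99, a call that was lost with the trend removed (0.27, limma adjusted p = 0.127). Of the interferon-gamma response genes 1 rose and 3 fell, GBP2 by -1.91 and GBP1 by -1.19, both guanylate-binding proteins. In tRNA charging and delivery 2 genes rose, PSTK (0.52) and MTFMT (0.41), and GATB fell (-0.28). The same list had 0 higher and 4 lower with the trend removed, where PSTK (0.23) and MTFMT (0.24) were no longer called.

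The inhibitor groups were then set against each other, at different doses of compounds with different named targets. PF9363 libraries had more WARS1, YARS1, VARS1, SARS1 and KARS1 than CBP300 libraries and less of 23 other synthetases, IARS2 (mitochondrial isoleucyl), TARS2, PARS2, EPRS1 and LARS1 foremost. WARS1 was higher by 0.78 (SE 0.07, limma adjusted p = 6.98e-06) and VARS1 by 0.47 (limma adjusted p = 0.000821). YARS1 was higher by 0.48 (limma adjusted p = 0.000174). For these genes, SARS1 and KARS1, all PF9363 libraries were above all CBP300 libraries.

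IARS2 was at 35.1, 57.0 and 53.1 TPM in CT libraries, 78.9, 74.1 and 72.2 in OSM libraries, 46.1, 41.9 and 33.1 with PF9363 and 102, 106 and 94.3 with CBP300. The inhibitor groups lay on either side of OSM without overlap. In CBP300 against OSM, however, IARS2 was not called (0.42, limma adjusted p = 0.0936). All CBP300 libraries lay above all OSM libraries for 41% of all tested genes. Between the inhibitor groups IARS2 differed by -1.31 (SE 0.17, limma adjusted p = 0.000105), a value of -0.68 with the trend removed. TARS2 differed by -1.26 (limma adjusted p = 4.1e-06), PARS2 by -1.11 (limma adjusted p = 6.98e-05), EPRS1 by -1.11 (limma adjusted p = 0.000288) and LARS1 by -1.07 (limma adjusted p = 8.1e-05). LARS1 was not called with the trend removed (-0.27). GARS1 (-0.43) and TARS3 (-0.56) were lower in PF9363, and with the trend removed neither was called (-0.05 and 0.03).

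Of the 37 genes 5 were called higher and 23 lower, against 14.5% and 45.1% of all tested genes, and the median was -0.56 beside -0.41 for all. Every mitochondrial gene tested lay below CBP300 in all PF9363 libraries, an order held by 53.6% of all tested genes, and 12 of 16 were called. Cytosolic genes gave 5 higher and 11 lower. With median-of-ratios scaling 10 were higher and 9 lower, against 26.1% and 27.9% of all tested genes. With the trend removed 9 were higher, 8 of them cytosolic, and 10 lower, 8 of them mitochondrial, against 27.7% and 27.9% of all. The difference between the cytosolic and mitochondrial medians was 0.32, and 0.13 with a pseudocount of 5 TPM. Of the interferon-gamma response genes 8 were higher in PF9363 and 0 lower, MX1 by 2.92, and of the uncharged tRNA and ATF4 genes 8 were higher and 4 lower, or 13 and 2 with the trend removed.

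Several of these genes overlap others, and the sources used here do not say whether reads were counted by strand. MARS1 overlaps DDIT3, itself in the ATF4 list, on the other strand, WARS1 overlaps WDR25 and antisense genes, and HARS1 overlaps HARS2. MARS2 shares its strand with AC011997.1 and SARS2 with AC011455.2, while MRPS12 overlaps SARS2 on the other strand. Their values may include reads of the partner.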

How the data were processed

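The authors deposited 1 table of TPM values for 60623 genes in 12 libraries. The submitters' processing notes name the genome build GRCh38 and the tools RSEM 1.3.3, Bowtie2 and Trimmomatic 0.40; tool roles, annotation, gene lengths, strand setting and filters are not given in the sources used here. Per the labels' protocols the library kit is stranded. The PF9363 columns sum to 397, 430 and 178 TPM under 1e6. Whole reads were recovered for 99.97% of tested genes (tolerance 0.001) and give the depth, which limits precision. Genes at 1 TPM or more in 3 libraries (16848) were tested on log2(TPM + 1) with limma 3.58.1 (R 4.3.3): 1 mean per group over 12 libraries, trended variance, Benjamini-Hochberg within each comparison. Fold changes on this scale understate those of low genes. The steps were tested on simulated data. The GC and length trend (natural splines, 4 degrees of freedom each, 16729 genes) and gene positions used GENCODE 29. Named are the 4 highest and 4 lowest called changes per comparison, plus WARS1, GARS1, KARS1, EPRS1, TARS3 and LARS2; others named were chosen after their values were seen, and some genes the rule names are not reported here. Members and lists were chosen with earlier results of these data known. Tables came from pandas 2.3.3 and numpy 2.4.6 under Python 3.11.15, and plots from matplotlib 3.10.9.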

Additional observations from a re-analysis of the deposited data

How the results depend on the processing

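The 23 other settings were pseudocounts of 0.1 and 5 TPM, no filter, a filter at 5 TPM, median-of-ratios scaling, removal of mitochondrially encoded genes, removal of the GC and length trend, limma's voom on recovered reads, the replicate number as a block, a block with the trend removed (chosen after seeing the data), a fit of the compared groups alone, and omission of each library. Of 1150 values for 50 gene results, 1015 kept direction and side of the threshold, 82 were no longer called, 9 became called and 44 changed sign. The cause of these shifts was not tested. Groups of 3 allow no outlier test, and values near 1 TPM rest on few reads.

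Counts are given as higher and lower. With median-of-ratios scaling they were 9 and 7 (OSM with CT), 12 and 10 (PF9363 with OSM), and 10 and 9 (PF9363 with CBP300). With the trend removed, lower counts were 7 (OSM with CT) and 4 (CBP300 with OSM), PF9363 had 13 and 10 against OSM and 9 and 10 against CBP300. With voom they were 12 and 4 (OSM with CT), beside 5736 and 3885 of all 16843 genes tested there. For PF9363 with OSM voom gave 5 higher, beside 2234 of all. In a fit of the compared groups, 18 were higher for CBP300 with OSM, beside 6300 of all 16848 tested genes. The difference of cytosolic and mitochondrial medians for PF9363 with CBP300 was 0.13 with a pseudocount of 5 TPM.

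Same-numbered libraries showed no strong shared deviation, with correlations from -0.22 to 0.23 in these 4 comparisons. With so few libraries this does not settle whether replicate numbers pair the samples. With the replicate block, lower calls for CBP300 with OSM were 4, beside 1948 of all 16848 tested genes. The other counts stayed within 1.5 times. With block and trend removal the counts were 13 and 6, 11 and 10, 4 and 4, and 9 and 10 in the order OSM with CT, PF9363 with OSM, CBP300 with OSM and PF9363 with CBP300. Over all 16729 genes so tested they were 3727 and 4273, 4468 and 3981, 2631 and 2171, and 4459 and 4477.

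Leaving out single libraries gave 15 to 23 higher for OSM with CT, 2 to 5 higher and 14 to 21 lower for PF9363 with OSM, 3 to 14 higher and 2 to 9 lower for CBP300 with OSM, and 4 to 5 higher and 21 to 28 lower for PF9363 with CBP300. The 5 for PF9363 with OSM was reached without CT replicate 1. Each OSM or CBP300 library left out lowered the CBP300 counts to between 3 and 5 higher and 2 and 4 lower. Over all 16848 tested genes these omissions gave 1090 to 1649 higher and 1492 to 1802 lower, against 2327 and 2238 with every library kept. For the other comparisons, the all-gene counts over the omitted libraries were 5539 to 7619 higher for OSM with CT. They were 1557 to 2335 higher and 4875 to 7263 lower for PF9363 with OSM, and 2105 to 2779 and 6453 to 8681 for PF9363 with CBP300.

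Sign changes follow in the order of median-of-ratios scaling, trend removal and voom, with the block and trend value equal to that of trend removal. For OSM with CT, AARS1 became -0.19, -0.05 and -0.04, KARS1 -0.27, -0.17 and -0.13, and WARS1 -0.21, -0.04 and -0.07. QARS1 became -0.20 with scaling and -0.06 with voom, GARS1 -0.14 with scaling, and EPRS1 -0.29 and LARS2 -0.03 with trend removal. For PF9363 with OSM, GARS1 became 0.36, 0.33 and 0.10, KARS1 0.35, 0.30 and 0.08, and HARS1 0.11 and 0.12 with the first pair. For CBP300 with OSM, LARS2 became -0.06, -0.09 and -0.07, and EPRS1 -0.05 with trend removal. For PF9363 with CBP300, GARS1 became 0.03 with scaling and TARS3 0.03 with trend removal. Over the omitted libraries, PF9363 with OSM ranged from -0.08 to 0.06 for GARS1 and from -0.03 to 0.0078 for KARS1, and CBP300 with OSM from -0.0057 to 0.08 for LARS2.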
